A study of Homo sapiens with 16 samples.

Results

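The genes described here encode the contractile apparatus of smooth muscle and of myoepithelial cells, the contractile outer layer of the mammary duct. The set held 9 of the 32285 mouse genes counted: the actins Acta2 and Actg2, the actin-binding proteins Tagln, Cnn1 and Tpm2, the myosin genes Myh11 and Myl9, the myosin kinase gene Mylk, and the intermediate filament gene Des. They were chosen by name with earlier results of these data known, as were the lists of further contractile, basal and marker genes used below. Their counts beside all tested genes are therefore descriptions. Their UMIs (unique molecular identifiers, each standing for a captured mRNA molecule) were summed over all cells of each deposited cell label and given as CPM, counts scaled to 1000000 UMIs of that label.

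The tumors were mouse-derived syngeneic transplants of LPA1-T22 (T22) and LPA1-T127 (T127), tumor models that arose in mice carrying an LPA1 receptor transgene active in mammary epithelial cells, grown as tumor chunks in the mammary fat pad of female FVB mice bought at 6 weeks of age. In the long-term experiment T22 and T127 grew as single strain tumors or co-transplanted on opposite sides, and mice received vehicle or olaparib (50 mg/kg daily by mouth), a PARP inhibitor, for 20 days. The short-term T22 and short-term T127 experiments used vehicle or olaparib for 4 or 8 days. Each pool mixed hashtagged cells of several tumors. The tumor of origin of single cells was not analysed here, so treatments and transplant settings were not compared. T22 and T127 are each a single tumor model.

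The 16 pools (8 long-term, 4 short-term T22, 4 short-term T127) held 53946 cells, with 34755906 to 55600377 UMIs per pool. In the long-term experiment 3939 barcodes occurred in both pools 1 and 2, 987 in pools 1 and 3, and 1082 in pools 2 and 3. Only the deepest copy of each repeated barcode was kept, which left 48824 cells. Each experiment counted as 1 sample and pools as its technical parts, so no p-value was computed. Values are given with their range over pools or with 95% intervals that cover counting error only. Labels are clusters that the authors made from the same expression values, so the differences between labels are descriptions. The study named fibroblasts by Dcn or Acta2, so Acta2 itself took part in naming my_CAF.

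In smooth muscle and myoepithelium, myosin filaments pull on actin filaments. The myosin heavy chain is the motor, its regulatory light chain is switched on by phosphorylation through myosin light-chain kinase, and calponin, tropomyosin and transgelin bind the actin filament. Smooth muscle α-actin also marks myofibroblasts and the mural cells (pericytes and vascular smooth muscle) that wrap blood vessels, whereas desmin is a filament protein of muscle and pericytes. In the mammary gland, myoepithelial cells carry these contractile proteins together with basal keratins and p63. Fibroblasts of a tumor are commonly split into contractile (my_CAF) and inflammatory (i_CAF) forms.

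The 9 contractile genes divided the tumors' cells into a small number of labels. Malign_2, a malignant label of 1352 long-term and 1736 short-term T22 cells with no cell in short-term T127, held Acta2, Tagln, Myh11, Cnn1, Tpm2, Myl9 and Mylk at least 4-fold above every other malignant label. It shared a high level of these genes with my_CAF, a stromal label of 117 long-term, 129 short-term T22 and 8 short-term T127 cells. Des and Actg2 stood apart, at 323 and 87.6 CPM in long-term my_CAF and at 0.340 and 1.79 CPM in Malign_2. Cnn1 ran the other way, at 328 CPM in Malign_2 and 32.3 CPM in my_CAF.

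The labels were first set against marker genes. Malign_2 in long-term pools carried the basal and epithelial markers Krt5 (916 CPM), Krt14 (1734 CPM), Trp63 (87.2 CPM) and Epcam (922 CPM), while 0 of 6 mural markers reached 10 CPM. It also held fibroblast markers, 5 of 7 of them at 10 CPM or more and 1086 CPM in sum. Of these, Dcn lay at 772 CPM, above the 124 CPM of my_CAF, and Malign_0 and Malign_1 held Dcn at 4305 and 4324 CPM. In my_CAF all 6 mural markers (Rgs5, Pdgfrb, Notch3, Cspg4, Kcnj8 and Abcc9) were above 10 CPM in both the long-term and the short-term T22 experiments. Rgs5 alone reached 4203 CPM in long-term my_CAF, against 0.566 CPM in i_CAF. The 6 mural markers summed to 6814 CPM in long-term my_CAF (pools 5686 to 8079) and to 204 CPM in i_CAF (173 to 239). The 7 fibroblast markers summed to 5281 CPM (2911 to 6697) in my_CAF and to 35409 CPM (31040 to 39086) in i_CAF. In my_CAF 5 of the 7 were at 10 CPM or more, while Pdgfra lay at 4.04 CPM and Lum at 10.8 CPM. The cells named my_CAF thus carried mural markers at higher levels than i_CAF and fibroblast markers at lower levels, and the label is kept here only as the deposited name. The 4 skeletal muscle markers had no UMI in long-term my_CAF and summed to 4.00 CPM in Malign_2.

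Acta2 encodes smooth muscle α-actin. In long-term pools Malign_2 held 7275 CPM (lowest pool 5270, median 6846, highest 9661) and my_CAF 7437 CPM (3059, 6364 and 10500). The pool ranges overlapped, Malign_2 was the higher of the pair in 4 of 8 pools (pools 5 to 8), and the ratio was 0.978 (0.952 to 1.00). Without the my_CAF cell of pool 3 that held 712 of the Acta2 UMIs the ratio was 1.10 (1.07 to 1.13), so no order of the pair is read from it. Malign_0, Malign_1 and Malign_3 lay at 8.44, 13.3 and 22.7 CPM, so Malign_2 stood 862-fold (791 to 942), 546-fold (502 to 596) and 321-fold (289 to 357) above them, with no overlap of pools. i_CAF was intermediate, at 198 CPM (89.6, 168 and 425).

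The same order was seen for Acta2 in short-term T22 tumors with a difference between the top labels. Malign_2 held 5376, 5038, 3838 and 4413 CPM in pools 1 to 4 and my_CAF 2725, 2056, 3159 and 4335 CPM. Malign_2 was higher in 4 of 4 pools, by 1.56-fold (1.52 to 1.60) on summed UMIs, although the ranges overlapped. Without the my_CAF cell that held 1173 of the 5324 Acta2 UMIs the ratio was 1.95 (1.89 to 2.01). Malign_3 lay at 16.7, 16.2, 24.4 and 30.2 CPM, far below every Malign_2 pool, and the ratio on summed UMIs was 221 (184 to 269). i_CAF lay between, with 462, 473, 619 and 363 CPM. In short-term T127 tumors, where Malign_2 and Malign_3 were missing, Malign_0 and Malign_1 held 7 and 5 Acta2 UMIs in all, or 0.0744 and 0.0611 CPM.

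Free RNA in the droplets can give UMIs in cells that do not express a gene, so the immune labels were used as a background. Over all immune labels, which are not known to make smooth muscle actin, Acta2 lay at 32.0 CPM in long-term pools (21.7 to 42.9), at 63.4 CPM in short-term T22 (60.5 to 65.2) and at 1.46 CPM in short-term T127 (1.19 to 2.14). Single immune labels of at least 50 cells ranged from 13.8 to 197 CPM in long-term pools, the highest being CD14-PF4 with 98 cells (median pool 17.8, highest 967), and from 22.7 to 130 CPM in short-term T22. The 198 CPM of long-term i_CAF was close to the level of that highest immune label, whose median pool was 17.8 CPM. Every i_CAF pool (89.6 to 425 CPM) lay above the range of the immune pools. In short-term T22 i_CAF held 482 CPM, above the highest immune label. In CPM over all pools, the Acta2 of Malign_0, Malign_1 and Malign_3 was below the immune level of the same experiment. Malign_1 of long-term pool 8, at 55.4 CPM, lay above the range of the immune pools. Per long-term cell, the same labels held 0.182, 0.293 and 0.395 Acta2 UMIs, against 0.185 in the shallower B, NK and T cells. Here and below, background means the immune level in CPM. Whether these malignant labels hold Acta2 above free RNA was not tested. For Tagln, Cnn1, Tpm2, Mylk and Myl9 the long-term immune levels were 5.59, 2.16, 11.1, 2.15 and 5.42 CPM. In Malign_3, Mylk (0.824 CPM long-term and 2.29 CPM short-term T22), Cnn1 (2.15 and 3.62 CPM) and Myh11 (0.190 and 1.34 CPM) did not exceed the immune levels, which in short-term T22 were 7.03, 5.48 and 3.91 CPM and for long-term Myh11 0.694 CPM. For Acta2 and these genes the ratios of Malign_2 to Malign_3 are therefore ratios to a background level, and their intervals cover the counting error only.

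Actg2, the enteric smooth muscle γ-actin, lay in single immune labels of at least 50 cells at up to 2.19 CPM in long-term pools and 1.32 CPM in short-term T22. In Malign_2 it was low, though above all immune labels together in long-term pools (0.236 CPM, 0.165 to 0.326) and in short-term T22 (0.106 CPM, 0.0530 to 0.190). It held 1.79 CPM there in long-term pools (42 UMIs; lowest pool 0, median 1.68, highest 4.29) and 87.6 CPM in my_CAF (65 UMIs; 0, 57.3 and 205), a ratio of 0.0204 (0.0135 to 0.0305). The ranges overlapped, and Malign_2 was the higher in 1 of 8 pools. In short-term T22 my_CAF held 176, 24.3, 60.03 and 1056 CPM in pools 1 to 4 and Malign_2 1.48, 2.45, 0.957 and 0.699 CPM (1.43 CPM in all, 1.11 to 1.81). The my_CAF levels came from few cells: 29 of the 65 long-term UMIs and 375 of the 537 short-term UMIs sat in a single cell each. Without that cell my_CAF held 49.5 CPM and 94.0 CPM, and the ratio was 0.0361 (0.0226 to 0.0579) and 0.0152 (0.0113 to 0.0203).

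Tagln encodes transgelin, an actin-binding protein of smooth muscle. Long-term my_CAF held 2834 CPM (1381, 2437 and 4041) and Malign_2 827 CPM (514, 768 and 1079). Malign_2 was lower in all 8 pools with no overlap, at a ratio of 0.292 (0.279 to 0.305). In short-term T22 my_CAF held 1502, 568, 1376 and 2513 CPM and Malign_2 731, 722, 444 and 566 CPM. Here Malign_2 was higher in pool 2 and lower in the other 3 pools, at a ratio of 0.436 (0.419 to 0.455). Without the my_CAF cell that held 731 of the 2518 Tagln UMIs the ratio was 0.598 (0.570 to 0.628). Of the 9 genes, Tagln was the closest between Malign_2 and i_CAF in short-term T22 tumors, where i_CAF held 733, 795, 633 and 570 CPM and the ratio was 0.913 (0.885 to 0.941). For every 100 Acta2 UMIs, Malign_2 held 11.4 Tagln UMIs in long-term pools and 13.2 in short-term T22, my_CAF 38.1 and 47.3, and i_CAF 159 and 141. Against Malign_3, Tagln in Malign_2 was 43.3-fold higher in long-term pools (38.7 to 48.7) and 28.0-fold higher in short-term T22 (23.4 to 33.9). In Malign_3 the 5 cells with most Tagln held 59.8% of its long-term UMIs, and a single cell held 57.8% of its short-term UMIs.

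Cnn1, calponin of smooth muscle, was the only one of the 9 genes with a level at least 4-fold higher in Malign_2 than in my_CAF. Malign_2 held 328 CPM in long-term pools (244, 322 and 407) and my_CAF 32.3 CPM from 24 UMIs (0, 9.42 and 158), with no overlap and a ratio of 10.1 (6.80 to 15.8). A single my_CAF cell of pool 2 held 16 of those 24 UMIs, and without it the ratio was 30.0 (15.2 to 69.6). Short-term T22 Malign_2 held 365, 353, 237 and 274 CPM and my_CAF 10.5, 1.87, 0 and 27.0 CPM, a ratio of 34.2 (21.1 to 59.9), or 76.1 (36.9 to 189) without the richest cell. The level of Cnn1 in short-term T22 my_CAF, 9.03 CPM, was close to the 5.48 CPM of the immune labels, and 9 of its 16 UMIs came from that single cell, without which it was 4.06 CPM. Against Malign_3 the Malign_2 level was 152-fold higher (109 to 220) in long-term pools and 85.3-fold higher (54.6 to 142) in short-term T22.

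Tpm2, β-tropomyosin, which lies along the actin filament, had the smallest ratio of Malign_2 to each other malignant label in long-term pools among the 7 genes named above as at least 4-fold higher. Long-term Malign_2 held 916 CPM (694, 943 and 1251), Malign_0 68.6 CPM (41.4, 68.2 and 92.4) and Malign_1 49.6 CPM (31.0, 55.5 and 87.4), so that the ratios were 13.3 (12.9 to 13.8) and 18.5 (17.6 to 19.4). In short-term T127 tumors Malign_0 held 209, 210.2, 227 and 205 CPM and Malign_1 161 CPM (153 to 168), far above the 6.09 CPM of the immune labels there. The malignant cells of T127 therefore held Tpm2 well above background there, while Acta2 was below it. Myl9 was too sparse to order, with 3 UMIs in the immune labels. Against my_CAF, Malign_2 was 1.15-fold higher in long-term pools (1.06 to 1.25; higher in 7 of 8 pools, ranges overlapping). In short-term T22 it was 2.02-fold higher (1.92 to 2.13), with 1818, 1721, 1434 and 1575 CPM in Malign_2 and 824, 669, 796 and 1007 CPM in my_CAF, which did not overlap.

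Myh11, the smooth muscle myosin heavy chain, was present in both labels. Long-term Malign_2 held 81.3 CPM (67.2, 82.4 and 96.4) and my_CAF 275 CPM (128, 173 and 578), with no overlap and a ratio of 0.296 (0.256 to 0.344). Short-term T22 Malign_2 held 214, 227, 161 and 181 CPM and my_CAF 213, 286, 171 and 496 CPM. Malign_2 was the higher in 1 of 4 pools, the ranges overlapped and the ratio was 0.680 (0.622 to 0.745). Without the my_CAF cell that held 126 of the 513 Myh11 UMIs the ratio was 0.877 (0.792 to 0.973). Long-term Malign_3 held 3 Myh11 UMIs (0.190 CPM), so Malign_2 was 428-fold higher with a wide interval (146 to 2077), and i_CAF held 0.850 CPM. Myh11 was thus far lower in i_CAF than in my_CAF, by 323-fold in long-term pools (167 to 717) and 171-fold in short-term T22 (97.1 to 333). The i_CAF levels, 0.850 and 1.69 CPM, were near or below the 0.694 and 3.91 CPM of the immune labels, so these are ratios to a background level.

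Myl9 encodes the regulatory light chain of smooth muscle myosin. Long-term my_CAF held 1697 CPM (984, 1301 and 2438) and Malign_2 780 CPM (626, 782 and 945), with no overlap and a ratio of 0.459 (0.434 to 0.487). In short-term T22 the labels lay closer, with 830, 559, 627 and 626 CPM in my_CAF and 620, 605, 444 and 520.2 CPM in Malign_2. The ratio was 0.846 (0.797 to 0.898) and the ranges overlapped. When each cell was given equal weight the log2 ratio went from -0.24 to 0.03, and without the 5% of cells with most UMIs in each pool it was 0.02.

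Mylk encodes myosin light-chain kinase, which phosphorylates that light chain. It was lower in Malign_2 than in my_CAF in every pool of both experiments. Long-term values were 170 CPM (145, 169 and 199.8) in Malign_2 and 571 CPM (330, 527 and 778) in my_CAF, a ratio of 0.297 (0.268 to 0.329). Short-term T22 Malign_2 held 365, 391, 291 and 305 CPM and my_CAF 824, 740.2, 747 and 867 CPM, a ratio of 0.430 (0.407 to 0.455). Against Malign_3, Malign_2 was 206-fold higher (120 to 387) in long-term pools and 148-fold higher (84.9 to 287) in short-term T22.

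Des encodes desmin and was at background in Malign_2. Long-term Malign_2 held 8 UMIs (0.340 CPM; pools 0 to 1.23) and short-term T22 Malign_2 9 UMIs (0.165, 0.158, 0.174 and 0.262 CPM), beside 0.170 and 0.125 CPM in the immune labels. my_CAF held 323 CPM in long-term pools (218, 318 and 513) and 199.5, 260, 145 and 285 CPM in short-term T22. The ranges did not overlap, and the ratio of Malign_2 to my_CAF was 0.00105 (0.000449 to 0.00211) and 0.000844 (0.000383 to 0.00162). Des was also spread over many my_CAF cells, since the richest cell held 4.58% of the long-term UMIs and 11.1% of the short-term UMIs. In the 8 my_CAF cells of short-term T127 Des lay at 661 CPM (266 to 993), and Acta2 at 4593 CPM, while Malign_0 and Malign_1 there held no Des UMI.

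The calls at 4-fold summarise these ratios. The line was a log2 ratio of 2 on CPM with a pseudocount of 1 CPM, and 7 of the 9 genes (all but Actg2 and Des) passed it against each of Malign_0, Malign_1 and Malign_3 in long-term pools, where 2.36% of the 13582 genes with at least 50 UMIs did. Actg2 and Des were below that minimum there. The minimum was on UMIs summed over the compared labels. A gene nearly absent from the others, such as Myh11 (1913 UMIs in Malign_2 and 3 in Malign_3), met it only through Malign_2. The count is therefore read over all 9 genes and not over the tested ones. The same 7 of the 9 passed it against Malign_3 in short-term T22, beside 4.87% of all tested genes. In long-term pools, 2 of the 9 (Actg2 and Des) were at least 4-fold higher in my_CAF than in Malign_2, beside 6.06% of tested genes, and 1 (Cnn1) at least 4-fold higher in Malign_2, beside 10.6%. The same genes were called in short-term T22, beside 7.16% and 8.95%. Against i_CAF, 9 of 9 were at least 4-fold higher in my_CAF in long-term pools, beside 2.93% of tested genes. In short-term T22 6 of the 9 were, beside 2.82%, and Tagln and Tpm2 had log2 ratios of 1.06 and 1.63. Cnn1, with fewer than 50 UMIs there, had 1.90 and was also below the line. The long-term call of Cnn1 rested on a single cell: my_CAF was the higher in 5 of 8 pools with overlapping ranges, and without the cell that held 16 of its 24 UMIs it stood at 10.9 CPM beside 4.25 CPM in i_CAF (log2 ratio 1.18), which left 8 of 9. Without the richest cell for each gene the short-term T22 count stayed at 6. Actg2 was then close to the line, at a log2 ratio of 2.05 in place of 3.72, and with all cells its pool ranges overlapped. None of the 9 was 4-fold lower in my_CAF than in i_CAF, beside 8.87% and 5.86% of tested genes.

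**Figure D1:**
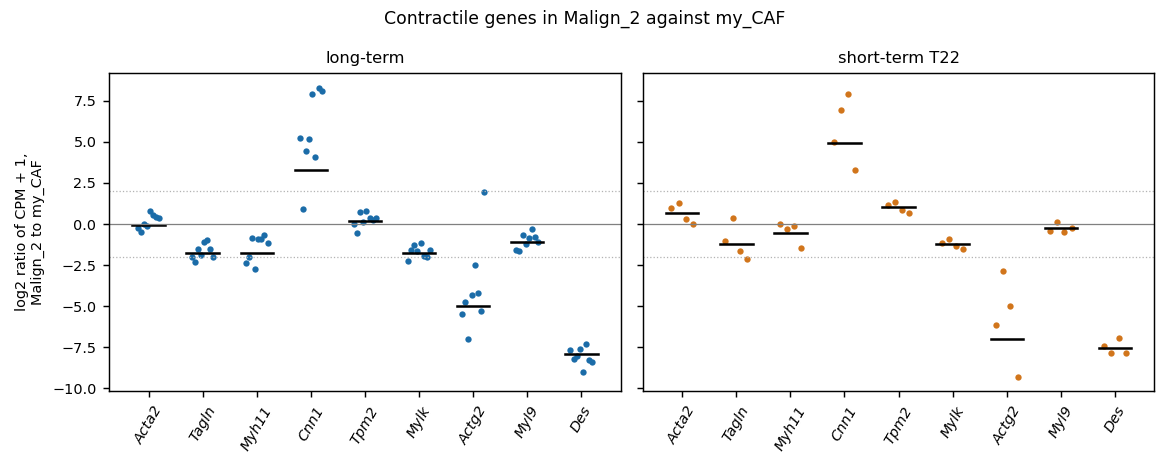
Log2 ratio of Malign_2 to my_CAF for each contractile gene, from CPM with 1 CPM added, with a point for each pool, a bar for the summed UMIs and dotted lines at 4-fold. Cnn1 bars lie above the upper line and Actg2 and Des bars below the lower line in both experiments.

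The long-term pools fell into numbered sets that differed in level, a split made after the values were seen. In Malign_2 of pools 1 to 4, Acta2 was 7045 to 9661 CPM and Tagln 821 to 1079 CPM, and in pools 5 to 8 they were 5270 to 6647 and 514 to 714 CPM. Tpm2 ran the other way, at 694 to 802 CPM and 1084 to 1251 CPM. In my_CAF Acta2 was 8169 to 10500 CPM in pools 1 to 4 and 3059 to 4560 CPM in pools 5 to 8. In pools 5 to 8 Malign_2 thus held more Acta2 than my_CAF without overlap. In each of pools 1 to 4 my_CAF held more than Malign_2, with overlapping ranges and the closest values in pool 3 (8169 and 8115 CPM). The make-up of the sets differed as well, with Malign_1 at 9.67 to 10.9% of cells in pools 1 to 4 and 3.32 to 4.61% in pools 5 to 8, and B cells at 0.152 to 0.811% and 1.62 to 2.498%. The part of these differences in the levels was not tested.

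Malign_2 was also compared between experiments, which differ in duration, tumors and pools at the same time, so these cannot be told apart. Acta2 was 1.55-fold (1.54 to 1.56) and Tagln 1.33-fold (1.31 to 1.36) the short-term T22 level in long-term pools, with overlapping pools. Myh11, Mylk and Tpm2 were lower in long-term Malign_2, at 0.413 (0.393 to 0.434), 0.499 (0.482 to 0.517) and 0.558 (0.549 to 0.566) of the short-term T22 level, with no overlap of pools. Myl9 was 1.42-fold (1.39 to 1.44) higher, also without overlap, and Cnn1 1.06-fold (1.03 to 1.09). The 9 genes of the set therefore did not shift together between the experiments.

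Shares of cells were compared after thinning each cell to 3000 UMIs at random. At this depth Acta2 had a UMI in 86.6% of the 1352 long-term Malign_2 cells (exact 95% interval 84.7 to 88.4), in 80.6% of 93 my_CAF cells (71.1 to 88.1) and in 8.21% of 1145 B, NK and T cells (6.68 to 9.95). Before thinning the shares were 94.0%, 81.2% and 10.8%, at median depths of 15779.5, 5926 and 3200 UMIs per cell. At 6000 UMIs the order turned, with 89.6% of Malign_2 cells (87.9 to 91.2) and 94.6% of the 56 my_CAF cells left (85.1 to 98.9), so no order of these labels is read from the Acta2 share. Thinning to 3000 UMIs left out the 24 my_CAF cells and 1003 B, NK and T cells with fewer UMIs. Des had a UMI in 0.148% of Malign_2 cells (0.0179 to 0.533), in 61.3% of my_CAF cells (50.6 to 71.2) and in 0 of 1145 B, NK and T cells, which allows a share of up to 0.262% at 3 counts of the total (exact upper limit 0.322%), a limit on cells with a UMI and not on cells that express the gene. Cnn1 was found in 39.7% of Malign_2 cells (37.1 to 42.4) and in 2.15% of my_CAF cells (0.262 to 7.55), beside 0.873% of B, NK and T cells. The other shares in Malign_2 and my_CAF were 76.4% and 81.7% for Tpm2, 64.2% and 83.9% for Myl9, 46.4% and 64.5% for Tagln, and 32.0% and 76.3% for Mylk. Myh11 was found in 15.7% of Malign_2 cells (13.8 to 17.7) and 32.3% of my_CAF cells (22.9 to 42.7), and Actg2 in 0.444% and 12.9%. At 6000 UMIs the my_CAF shares were 7.14% for Cnn1, 51.8% for Myh11 and 23.2% for Actg2, each over 56 cells.

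In short-term T22 tumors the thinned shares in Malign_2 were close to these for Acta2 (85.9%, 84.2 to 87.5) and higher for Myh11 (28.2%, 26.1 to 30.4) and Mylk (51.2%, 48.8 to 53.6). The Acta2 share among B, NK and T cells was 12.9% (11.9 to 13.9), against 79.3% of 111 my_CAF cells (70.5 to 86.4). Des was found in 38.7% of my_CAF cells (29.6 to 48.5) and 0.115% of Malign_2 cells (0.0140 to 0.416), and at 6000 UMIs in 67.3% of the 98 my_CAF cells left (57.1 to 76.5). The pericyte marker Rgs5 was found in 96.8% of long-term my_CAF cells and in 0.0740% of Malign_2 cells, and the epithelial marker Epcam in 1.08% and 83.3%, so that few cells of either label held the marker of the other.

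The number of the 9 genes found in the same cell was then counted. Of the thinned Malign_2 cells, 36.1% (33.5 to 38.7) had a UMI of at least 5 of the 9 genes in long-term pools and 43.1% (40.7 to 45.5) in short-term T22. In my_CAF these shares were 60.2% (49.5 to 70.2) and 49.5% (39.9 to 59.2). No Malign_3 cell reached 5 genes, of 907 in long-term and 218 in short-term T22 pools, and 0.262% of long-term B, NK and T cells did. Malign_2 also held cells with none of the genes, 7.17% in long-term and 4.49% in short-term T22 pools. The summed UMIs of the 9 genes in a long-term Malign_2 cell had a median of 22 and quartiles of 5.75 and 51, beside a median of 23 in my_CAF. Malign_2 thus spanned cells with few and with many contractile transcripts.

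**Figure D2:**
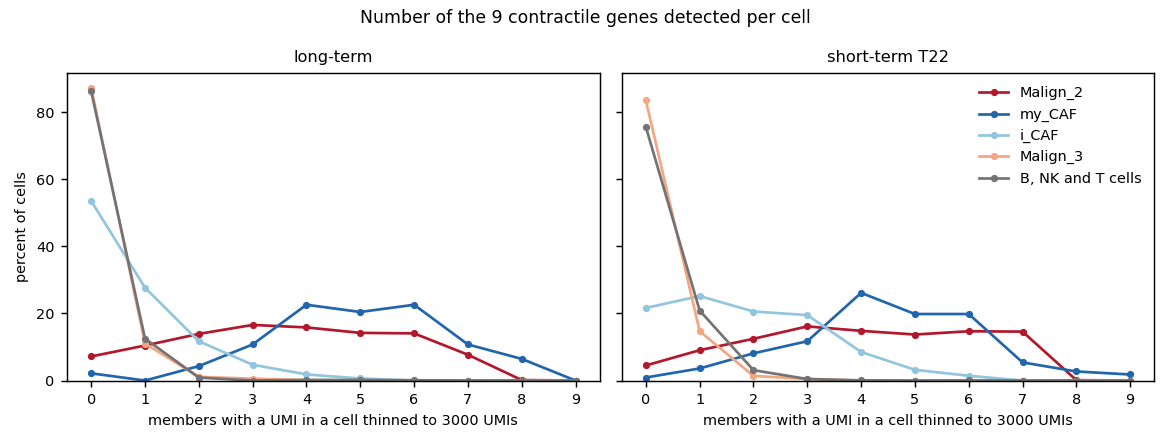
Percent of cells by the number of the 9 contractile genes with at least 1 UMI, each cell thinned to 3000 UMIs. Malign_2 and my_CAF are spread from 0 to 8 or 9 genes, whereas Malign_3 and the B, NK and T cells lie almost wholly at 0 and 1.

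To describe that range, Malign_2 cells were split within each pool into quartiles by their Acta2 CPM, a split made after the data were seen and one in which Acta2 itself is not a result. Acta2 ran from 344 CPM in the lowest quartile to 18226 CPM in the highest in long-term pools, at median depths per cell between 15106 and 17130.5 UMIs. Actg2 had no UMI in the lowest quartile of long-term pools and was not ranked there. Among the genes of the set with UMIs in both the lowest and the highest quartile, Myh11 had the largest ratio. It went from 0.939 to 242 CPM (257-fold, 118 to 702) in long-term pools and from 3.44 to 579 CPM (169-fold, 125 to 234) in short-term T22. Its level in the lowest quartile was near the 0.694 and 3.91 CPM of the immune labels, so these are ratios to a background level. Tagln was 53.7-fold and 63.8-fold higher in the highest quartile, Cnn1 45.7-fold and 40.0-fold, and Myl9 24.0-fold and 21.3-fold. Tpm2 (8.64-fold and 9.49-fold) and Mylk (11.0-fold and 6.41-fold) followed less steeply, and none of these ranges over pools overlapped. Des did not follow, at 0.469 and 0.534 CPM in long-term pools. Besides Acta2, 6 genes of the set with at least 50 UMIs over both quartiles passed the 4-fold line in long-term pools, beside 0.712% of tested genes. In short-term T22 Actg2 was added to them, beside 0.49%. Genes at background in the lowest quartile, such as Myh11, had enough UMIs only through the highest. Des, which did not follow, had too few in both experiments. These counts are therefore not read as a share of the set. No gene of the set was 4-fold lower, beside 1.12% and 0.916% of tested genes.

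Krt5 and Epcam moved in opposite ways along the same split, with no overlap of pools. Krt5, a basal keratin, went from 391 to 1542 CPM in long-term pools (3.94-fold, 3.77 to 4.13) and from 926 to 2676 CPM in short-term T22 (2.89-fold, 2.83 to 2.95). Epcam went from 1304 to 481 CPM (0.369, 0.353 to 0.385) and from 1040 to 408 CPM (0.393, 0.380 to 0.406). Krt18, a luminal keratin, went to 0.178 (0.152 to 0.208) of its level in the lowest quartile in long-term pools, where the pool ranges overlapped, and to 0.145 (0.122 to 0.172) in short-term T22, where they did not. The basal genes Krt14 and Trp63 differed by less than Krt5, with levels in the highest quartile above those in the lowest by 2.22-fold (2.15 to 2.28) and 2.39-fold (2.08 to 2.74) in long-term pools and by 1.69-fold (1.66 to 1.72) and 1.46-fold (1.37 to 1.56) in short-term T22. The fibroblast marker Dcn moved with them, from 469 to 1010 CPM in long-term pools (2.15-fold, 2.06 to 2.25) and from 584 to 964 CPM in short-term T22 (1.65-fold, 1.60 to 1.70), without overlap of pools, and its part in the result was not tested. Cells of Malign_2 with little Acta2 still held Krt5 far above the 3.10 CPM of Malign_3.

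Other genes of the contractile machinery differed by smaller ratios. Of 27 further genes, from tropomyosins and actinins to myosin phosphatase subunits and regulators, 2 (Smtn and Flna) were at least 4-fold higher in Malign_2 than in Malign_3 in long-term pools and 4 (Smtn, Flna, Synpo2 and Ppp1r14a) in short-term T22, and none was 4-fold lower. The median log2 ratio of the 24 and 25 of them with at least 50 UMIs was 0.73 and 0.97, beside -0.02 and -0.03 over all tested genes. Of all tested genes, 3.94% were at least 4-fold higher and 3.46% lower in long-term pools, and 3.58% lower in short-term T22. Smtn, encoding smoothelin, an actin-binding protein of smooth muscle, held 64.8 CPM in long-term Malign_2 and 12.7 CPM in Malign_3. Actn1 (α-actinin) and Mrtfb lay lowest of the list, at log2 ratios of -0.75 and -0.98.

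The regulators Srf, Mrtfa and Mrtfb did not reach the 4-fold line between Malign_2 and Malign_3, and Myocd had too few UMIs to be judged. Srf, the serum response factor that binds the promoters of many contractile genes, held 17.7 CPM in long-term Malign_2 and 6.72 CPM in Malign_3 (log2 ratio 1.28), and 20.2 CPM in my_CAF. Its cofactor genes Mrtfa and Mrtfb had log2 ratios of 0.49 and -0.98. Myocd, encoding myocardin, the cofactor restricted to cardiac and smooth muscle, had no UMI in long-term Malign_2 or Malign_3 and 7 UMIs (9.43 CPM) in my_CAF. In short-term T22 it had 6 UMIs in Malign_2, none in Malign_3 and 2 in my_CAF. These counts are few and stand over unlike totals (in pool 1, 12143427 UMIs in Malign_2 and 380858 in my_CAF). The larger count in Malign_2 is therefore not a higher level, and no order is read.

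Of 12 basal and myoepithelial genes, 6 were at least 4-fold higher in Malign_2 than in Malign_3 in both experiments, beside 3.94% of tested genes in long-term pools and 4.87% in short-term T22. In long-term pools these were Krt5 (log2 ratio 7.80), Trp63, which encodes p63 (5.70), Lgals7 (5.02), Cdh3, encoding P-cadherin (4.54), the laminin receptor subunit Itga6 (3.08) and the oxytocin receptor Oxtr (2.97). Itgb4 was the lowest, at -0.16. Oxtr, through which oxytocin makes myoepithelium contract, held 173 UMIs (7.36 CPM) in Malign_2 and 1 UMI in Malign_3. It thus met the minimum of UMIs only through Malign_2.

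Against my_CAF the 27 contractile genes leaned the other way. In long-term pools 7 of them (among these Tpm4, Vcl, Synpo2, Actn1, Ppp1r12b and Ppp1r14a) were at least 4-fold higher in my_CAF and 1 (Pdlim3) in Malign_2, beside 6.06% and 10.6% of tested genes. In short-term T22 these were 6 and 1, beside 7.16% and 8.95%. Ppp1r14a, encoding a smooth muscle inhibitor of myosin phosphatase, held 463 CPM in my_CAF and 8.89 CPM in Malign_2 (log2 ratio -5.55). Pdlim3 held 472 CPM in Malign_2 and 25.6 CPM in my_CAF, an 18.4-fold difference (11.8 to 30.6). These examples against my_CAF were chosen after their values were seen. Of the 12 basal genes, 10 in long-term pools and 11 in short-term T22 were at least 4-fold higher in Malign_2 than in my_CAF, against 10.6% and 8.95% of tested genes. Genes such as Krt5, found in 3 long-term my_CAF cells, met the minimum of UMIs only through Malign_2, so this count is a description.

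Across 52 points, each a label in an experiment, the genes of the set were compared by Pearson's r of log2(CPM + 1) without a test, since labels of an experiment share pools, depth and free RNA. Acta2 and Myl9 correlated at 0.97, whereas Des correlated with Acta2 at 0.56 and with Cnn1 at 0.29, and with Actg2 at 0.85. The set did not divide cleanly, since Des correlated with Mylk at 0.73 and Tagln at 0.71, while Acta2 correlated with Tpm2 at 0.71 and Cnn1 with Mylk at 0.67. Within the set, Acta2 also correlated with Cnn1 at 0.87 and Tagln at 0.85, and Myh11 with Myl9 at 0.86, Cnn1 at 0.81 and Acta2 at 0.81. Of 16144 genes compared outside the set, those most like Acta2 were Igfbp5 (0.863), Serpine2 (0.863), Ecrg4 (0.847), Gucy1a1 (0.823) and Carmn (0.811). Those most like Myh11 were Slc2a4 (0.886), Rasl12 (0.818), Lmod1 (0.811), Gucy1a1 (0.802) and Sh3gl2 (0.797). Those most like Des were Rgs4 (0.957), Lin7a (0.947), Trarg1 (0.928), Gucy1a2 (0.927) and Higd1b (0.923).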

How the data were processed

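The authors aligned the reads of each pool with Cell Ranger 6.0.0, introns included, to GRCm38, removed cells with few genes or a high mitochondrial share and called doublets with Scrublet. They deposited raw UMI counts per gene and cell with a cluster name for each cell. Doublets were not called again. Here the counts were summed per label and experiment, without a test across genes, with exact Poisson, conditional binomial and Clopper-Pearson intervals at 95%. Depth was 34755906 to 55600377 UMIs per pool. A label with no UMI was given the limit that 3 counts allow. The 9 genes, the lists of 27 contractile and 12 basal genes and the marker lists were chosen with earlier results of these data known. From those lists the text names the 6 largest and the 3 smallest log2 ratios of Malign_2 to Malign_3 in long-term pools and the regulators, and for Acta2, Myh11 and Des the 5 most correlated genes with at least 100 UMIs. Thinning and the 4-fold call were tested on simulated data. Alternatives were every deposited copy, other cell filters, pseudocounts and weights, each pool left out, and thinning to 6000 UMIs. The counts of genes higher in Malign_2 than in my_CAF and the removal of the richest my_CAF cell were added after seeing the data. Quartiles of Acta2 were chosen after seeing the data too. Computations used Python 3.11.15 with scipy 1.17.1, numpy 2.4.6 and pandas 2.3.3, and matplotlib 3.10.9 for plots.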

Additional observations from a re-analysis of the deposited data

Results flagged for a closer look

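In 5 of 52 sets of pools (a gene in a label of an experiment) a single pool stood apart from the others by the gap to its nearest neighbor relative to the whole range. The line is meant to mark about 1 set in 20 by chance. That rate was not checked for counts as low as these, so no excess is read from the 5 sets. All 5 concern Cnn1 or Actg2 in my_CAF or i_CAF. Cnn1 in long-term my_CAF was 158 CPM in pool 2 (18 UMIs in 20 cells, gap 0.880 of the range) and 0 to 18.9 CPM in the other pools, and 16 of those UMIs came from a single cell. Cnn1 in long-term i_CAF was 21.2 CPM in pool 2 (19 UMIs, gap 0.653), with 0.615 to 7.76 CPM elsewhere. Actg2 in long-term my_CAF was 205 CPM in pool 3 (29 UMIs, gap 0.540), with 0 to 94.6 CPM elsewhere. Actg2 in short-term T22 my_CAF was 1056 CPM in pool 4 (430 UMIs, gap 0.853), with 24.3 to 176 CPM elsewhere, and 375 UMIs of it came from a single cell of 48716 UMIs that was also the richest my_CAF cell of that experiment for the other 8 genes. Actg2 in short-term T22 i_CAF was low in pool 2, at 8.25 CPM (14 UMIs, gap 0.904), with 25.2 to 27.0 CPM elsewhere.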

How the results depend on the processing

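The alternatives were run on the counts of Malign_2 against the other malignant labels and against my_CAF. The counts along the quartiles of Acta2 were not run under them, and those of my_CAF over i_CAF only without the richest my_CAF cell, at 8 and 6 in place of 9 and 6. In Malign_2 against the other malignant labels 7 of the 9 genes were called under each of them in both experiments. In my_CAF over Malign_2 the count ran from 2 to 3 in long-term pools, where Myh11 was added when each cell had equal weight, and was 2 throughout in short-term T22. Leaving out each pool in turn gave 7 to 7 and 2 to 2. Of 468 alternative log2 ratios of single genes, 455 moved by less than the spread between pools and 13 by more, 12 of them with a pseudocount of 10 CPM. No gene past the 4-fold line changed direction. In 15 of the 468 the log2 ratio crossed 0, for Acta2 and Myl9 against my_CAF and Des against Malign_3. The Acta2 ratio of Malign_2 to my_CAF in long-term pools had log2 values on both sides of 0, from -0.11 without pool 6 to 0.25 without pools 1 to 3. With no minimum of UMIs the share of all genes at least 4-fold higher in Malign_2 was 1.55% against the other malignant labels and 3.06% against Malign_3 in short-term T22, and 6.36% and 5.62% against my_CAF. Of 72 alternative shares of cells, 54 moved beyond their interval. These alternatives change the depth and also which cells are kept. For a replicate block, no paired analysis was possible as a test because each experiment counted as 1 sample and no model was fitted. Labels were compared within pools by counting the pools in which 1 of them was higher.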
